A study of Mus musculus with 12 samples.

Results

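Rptor, Igfbp4 and Csnk2a1 are 3 growth signalling genes of 16177 genes named in RNA bisulfite sequencing (RNA BS-seq) lists of adult mouse neural stem cells (NSCs), and each carries 1 of the 253 methylated positions on the study's list. They were chosen from that list and from the study's comparison of low with medium folate in polysome mRNA, so their levels in polysome mRNA are a description here and carry no test. The lists held 2852 different cytosines of these genes among 6384216 in all. The NSCs came from the subventricular zone of wild-type male C57BL/6 mice aged 6 to 8 weeks. All cultures grew on poly-ornithine and laminin in medium with B27, EGF and bFGF, and the labels set them apart by the folic acid added for 4 days. LF cultures had 1.5 µM folic acid, MF cultures had 10 µM and HF cultures had 80 µM. Total poly(A) RNA gave the groups LF, MF and HF, and poly(A) RNA from pooled polysome fractions of the same 3 concentrations gave pLF, pMF and pHF, with 2 replicates in each of the 6 groups.

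In RNA BS-seq, bisulfite turns unmethylated cytosine into uracil, which is read as T, whereas 5-methylcytosine (m5C) is read as C. The methylation level of a cytosine is the number of reads with C divided by the reads with C or T. Every listed cytosine has 1 methylated read or more, and positions without any are missing from that library's list. NSUN2 and NSUN6 are the enzymes best known for placing m5C on mRNA. NSUN2 sites are followed by a run of G, and NSUN6 sites lie in the letters CTCCA.

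The 3 proteins act on one signalling network. Rptor encodes raptor, the scaffold that brings substrates to mTORC1, the kinase complex that raises protein synthesis when growth factors and amino acids are present. Igfbp4 encodes a secreted protein that binds insulin-like growth factors and keeps them from their receptor, and the receptor signals through PI3K and AKT to mTORC1. Csnk2a1 encodes the catalytic α subunit of protein kinase CK2, which phosphorylates many proteins of growth signalling, among them AKT.

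The coverage summed over the listed cytosines of a library was between 1186213013 and 2857966129. A read counts there once for each listed cytosine that it covers, so these are not numbers of reads. The 2 libraries labelled HF stood apart from the other 4 total mRNA libraries. Cytosines that reached 10% with 20 or more reads and 6 or more methylated ones numbered 6369 and 5182 there, against 2150 to 2641. Of these, 25.6% and 26.5% lay within 25 bases of another, against 89.1% to 90.7%. In comparisons with these libraries, the folate concentration and whatever else sets them apart cannot be told apart. pHF replicate 2 listed 38353 cytosines with a level above 0.9, against 1102 to 3465 in the other libraries. Among markers of NSCs, Nes, Vim, Fabp7, Pax6, Slc1a3 and Sox9 were listed, while no cytosine was listed under Sox2. After each library was scaled, the median coverages of the 6 NSC markers summed to between 40142 and 46853 in LF and MF. Those labelled HF had sums of 35369.6 and 36292, and polysome mRNA had 39803 to 52717.

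The 3 sites lie in different surroundings, which are shown here in the mouse genome build mm10 (GRCm38) on the plus strand, 5′ to 3′, with the site and the 4 bases after it in capitals.
Rptor site, chr11:119899069-119899089: ctcagttctgCAGAGagcttc
Igfbp4 site, chr11:99041687-99041707: ggatgccctgCGGGGtgtaca
Csnk2a1 site, chr2:152280160-152280180: gagccactatCTCCAgtgaac
The Rptor site, at position 119899079 of chromosome 11, is in the 3′UTR in exon 34 of 34, 1600 bases after the end of the coding sequence (CDS) and 328 bases before the transcript end. The Igfbp4 site, at position 99041697 of chromosome 11, is the third base of the TGC codon number 67 in exon 1 of 4. The Csnk2a1 site, at position 152280170 of chromosome 2, is in the 3′UTR in exon 13 of 13, 1089 bases after the end of the CDS and 1682 bases before the transcript end.

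The letters after the sites were compared with all listed positions, on the transcript strand only. The Igfbp4 cytosine is followed by GGGG. A cytosine followed by NGGG, which includes GGGG, made up 1.77% of 772591 background cytosines (level under 5% in both MF libraries) and 24.5% of the 253 list positions. The Csnk2a1 cytosine is followed by TCCA, which made up 0.775% of the background and 5.14% of the list. The Rptor cytosine is followed by AGAG, which made up 1.13% of the background and 3.95% of the list, so the Rptor site has neither of the contexts described for the 2 enzymes.

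The Rptor site was methylated in every library, and its level in each polysome library was above that in each total mRNA library. The LF libraries had 10.3% and 10.6%, the MF libraries 11.5% and 11.8%, and those labelled HF 12.1% and 9.72%. Of the polysome libraries, pLF had 16.6% and 25.4%, pMF 27.6% and 31.4%, and pHF 27.8% and 25.4%. The highest total library and the lowest polysome library, which was pLF replicate 1, were therefore 12.1% and 16.6%. Coverage of the site was between 144 and 321 reads in total mRNA and between 442 and 843 reads in polysome mRNA. Ordered by mean, the groups were pMF (29.5% ± 2.67, SD, n = 2), pHF (26.6% ± 1.73), pLF (21.0% ± 6.27), MF (11.7% ± 0.20), labelled HF (10.9% ± 1.67) and LF (10.5% ± 0.183). Only the step from pLF to MF separated neighbouring groups whose replicates did not overlap. Polysome mRNA exceeded total mRNA by a mean of 14.2 percentage points at LF and MF. The fractions were also separated at the positions in Dgcr2, Sorcs2 and Afg3l1, which are picked below for their likeness. The share of all listed positions with this separation was not computed, so it is not shown to be particular to Rptor.

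At the Igfbp4 site the fractions were not separated in this way, and the level varied most within total mRNA. The LF libraries had 1.82% and 4.17%, the MF libraries 13.3% and 8.25%, and the libraries labelled HF 20.3% and 16.7%. These LF levels rest on 1 of 55 and 3 of 72 reads, and their Wilson 95% intervals reached 9.61% and 11.5%. On polysomes, pLF had 17.1% and 15.1%, pMF 11.3% and 10.1%, and pHF 8.94% and 13.1%. LF was thus below MF in total mRNA, while pLF was above pMF in polysome mRNA, in both replicates each time. The order by mean was labelled HF (18.5% ± 2.56, SD, n = 2), pLF (16.1% ± 1.39), pHF (11.03% ± 2.95), MF (10.8% ± 3.54), pMF (10.7% ± 0.866) and LF (2.99% ± 1.66). The replicates of labelled HF and pLF overlapped, as did those of pHF, MF and pMF, and the steps from pLF to pHF and from pMF to LF were without overlap. The mean of polysome over total mRNA was 6.52 percentage points at LF and MF, and 1.86 points when pHF and the libraries labelled HF were included. The excess at LF and MF came from LF, with 16.1% in pLF against 2.99% in LF, while pMF had 10.7% and MF 10.8%.

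The Csnk2a1 site had low levels in total LF and MF libraries and higher levels in every polysome library. LF replicates had 2.40% and 6.10%, MF replicates 1.99% and 5.62%, and the replicates labelled HF 11.4% and 2.48%. The polysome replicates had 20.5% and 32.5% for pLF, 23.8% and 30.6% for pMF, and 20.2% and 21.2% for pHF. The lowest polysome library was above the highest total library, which was HF replicate 1 with 9 methylated reads of 79. As for Rptor, the share of all listed positions with this separation was not computed. The polysome levels of the Csnk2a1 site rest on few reads, with a coverage of 42 and 49 in pMF and 154 at most. The Wilson 95% interval of pMF replicate 1 ran from 13.5% to 38.5%. Ordered by mean, the groups were pMF (27.2% ± 4.81, SD, n = 2), pLF (26.5% ± 8.43), pHF (20.7% ± 0.727), labelled HF (6.94% ± 6.30), LF (4.25% ± 2.62) and MF (3.81% ± 2.57). Only pHF and labelled HF were neighbours without overlap, and polysome mRNA exceeded total mRNA by 22.8 points at LF and MF. The Csnk2a1 site reached the level of 10% in every polysome library and in no LF or MF library. It was thus open to choice through the fraction where it is high, and the choice favoured an excess of polysome over total mRNA. The intervals cover counting error only, since PCR copies of one molecule cannot be told apart.

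**Figure D1:**
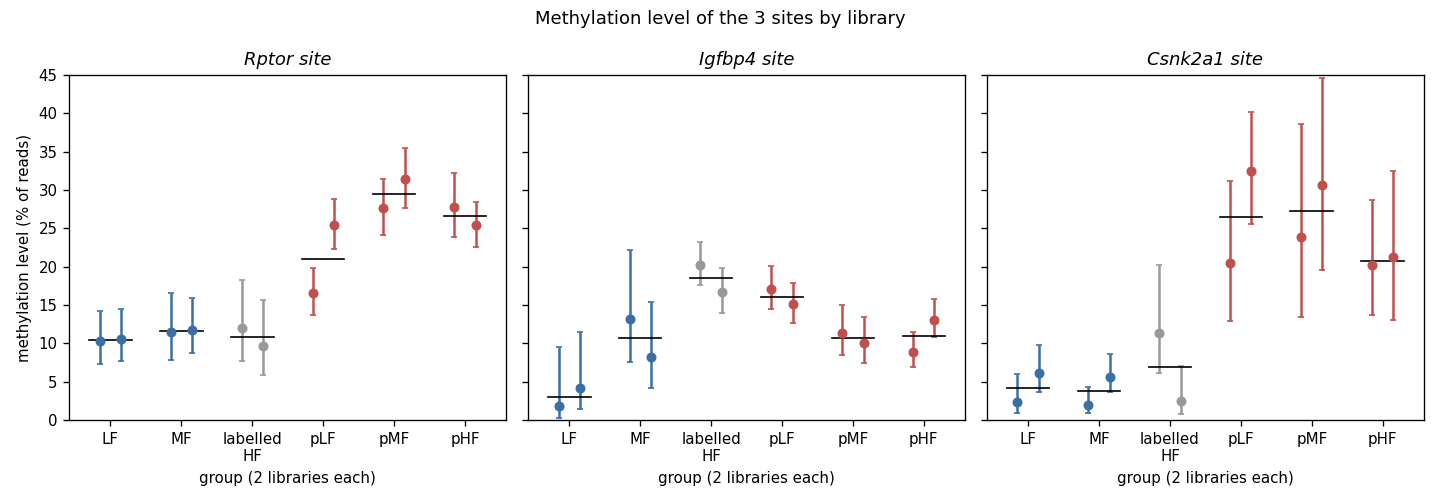
Methylation level in percent of reads (y axis) of the 3 sites in each of the 12 libraries, by group (x axis), with points for libraries, bars for Wilson 95% intervals and black lines for group means. Rptor and Csnk2a1 levels in polysome libraries (red) lay above those in total libraries (blue, and grey for labelled HF), while Igfbp4 was lowest in LF, at 1.82% and 4.17%. The share of all listed positions separated by fraction was not computed.

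Levels in total mRNA took no part in the choice of the genes by the polysome comparison. They were tested between folate concentrations with Fisher's exact test on pooled reads, adjusted over the study's positions. The study's list, however, also took in positions by their level in total mRNA, HF included. A position that is high in 1 group could enter the list through that group, so the tests and the shares called are not independent of the list. Of the 3 sites, 0 passed the threshold of 0.05 for LF against MF, where 3.17% of 221 positions were called. The test on pooled reads covers counting error only. The Igfbp4 site differed by -7.41 percentage points in LF against MF, with an adjusted p of 0.154 in this Fisher's exact test, over 127 reads in LF and 180 reads in MF. The pooled level of the Rptor site was 10.5% in LF and 11.7% in MF, with an adjusted p of 0.871 in the exact test. The Csnk2a1 site had 4.60% in LF and 3.91% in MF, with an adjusted p of 0.895 in the exact test.

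For the libraries labelled HF against MF, 39.8% of 201 positions were called and 37.8% were called higher, so a call there says little about a single site. Igfbp4 was called higher, with a pooled level of 18.7% against 10.6% and an adjusted p of 0.0204 in the exact test. This call ended in 2 other tests that include replicate spread, with an adjusted p of 0.0932 in the beta-binomial test and 0.243 with limma on log odds. It also ended without HF replicate 1 (adjusted p 0.113, exact test) and without MF replicate 2 (adjusted p 0.401, exact test). The Rptor site had 10.9% against 11.7% (adjusted p 0.889, exact test) and the Csnk2a1 site 6.00% against 3.91% (adjusted p 0.346, exact test). Without HF replicate 2 the Csnk2a1 difference was 7.48 points with an adjusted p of 0.0261 in the exact test, and without HF replicate 1 it was -1.43 points.

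Listed neighbours within 50 bases had lower levels than the sites, except in LF replicate 1, where a neighbour of the Igfbp4 site had 2.06% against 1.82%. Within 50 bases of the Rptor site, the listed cytosines had a pooled level of 0.528% in LF and MF and 0.370% in polysome mRNA, and the highest single level in these libraries was 2.52%. In the libraries labelled HF they had 2.02%, with 3.16% as the highest, over 346 reads. Around the Igfbp4 site the values were 0.938% and 0.240%, and the highest was 2.06%. Around the Csnk2a1 site they were 0.543% and 1.33%, and the highest was 2.74%. Because positions with no methylated read are not listed, these pooled levels are upper values. LF replicate 2 and MF replicate 1 listed 0 neighbours of the Igfbp4 site, and MF replicate 1 listed 0 neighbours of the Csnk2a1 site.

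The cytosines inside the sequences printed above gave the same picture at closest range. The 5 other cytosines of the Rptor sequence were listed 11 times in the LF and MF libraries, at 0.990% at most, and 2 times in the polysome libraries, at 0.211% at most. The 4 other cytosines of the Igfbp4 sequence were listed 6 times in polysome mRNA, at 0.286% at most, and 1 time in LF and MF, at 1.15%. The 6 other cytosines of the Csnk2a1 sequence reached 2.74% in polysome mRNA and 0.881% in LF and MF.

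Across the whole gene, the Rptor site ranked first among all Rptor cytosines covered by 20 or more reads in 10 libraries and as number 3 in both libraries labelled HF. The Igfbp4 site ranked first in 11 libraries and second in LF replicate 1. The Csnk2a1 site ranked first in all 6 polysome libraries, in LF replicate 2 and in MF replicate 2. It was number 4 in LF replicate 1, number 3 in MF replicate 1, and numbers 2 and 19 in the libraries labelled HF. In pLF replicate 2, 38 other Csnk2a1 cytosines had a level of 5% or more, and in pMF replicate 2 there were 11. Among pLF and pMF libraries, the cytosine 132 bases upstream of the site was listed in 1 library, with 5.62% (5 of 89 reads). The part of these unconverted reads in the site level was not tested.

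**Figure D2:**
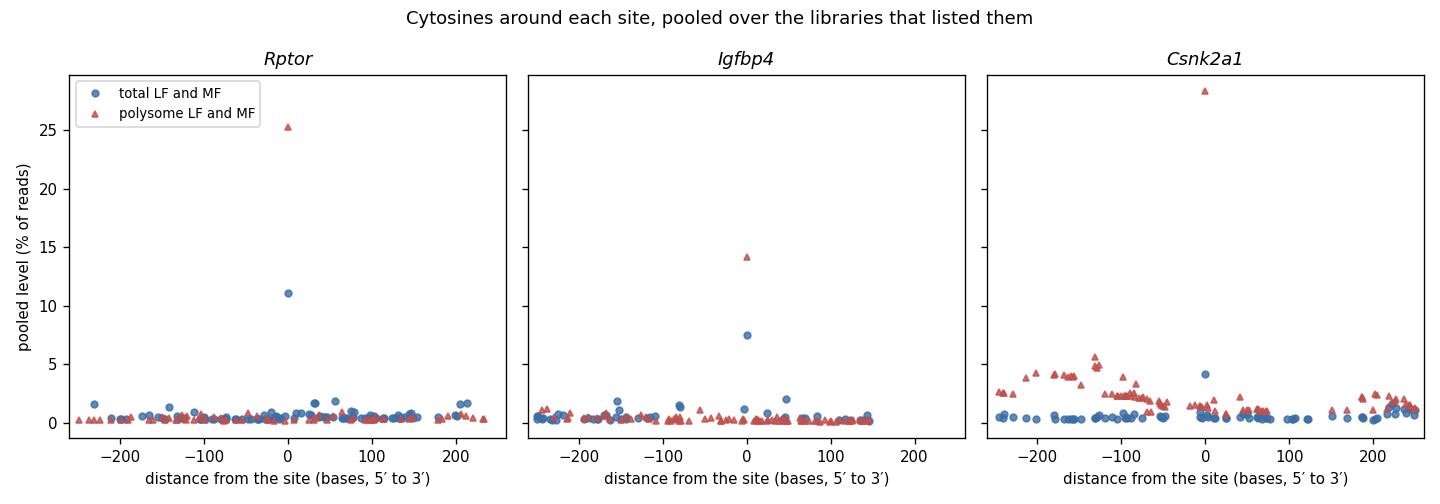
Methylation level in percent of reads (y axis) of each cytosine, pooled over the libraries that listed it, by distance in bases from the site (x axis, 5′ to 3′), for the 4 total LF and MF libraries (blue circles) and the 4 polysome LF and MF libraries (red triangles). The site at distance 0 is the highest point in each panel, and the highest other polysome point is the Csnk2a1 cytosine at -132 bases, with 5.62% from 1 library.

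The level of the Rptor site followed that of other listed positions over the 12 libraries. Of 159 positions covered by 20 or more reads in each library, the 3 with the highest Pearson r to the Rptor site were in Dgcr2 (chr16:17841431, minus strand, r = 0.957), Sorcs2 (chr5:36018128, minus strand, r = 0.950) and Afg3l1 (chr8:123501322, plus strand, r = 0.941). The Dgcr2 position went from 6.53% to 11.04% in total mRNA and from 13.4% to 22.2% in polysome mRNA. The Sorcs2 position went from 6.99% to 10.5% in total mRNA and from 30.2% to 44.5% in polysome mRNA. These r values describe 12 libraries that share depth and fraction, and they were picked as the highest.

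Gene coverage, the median coverage of a gene's cytosines with a level under 5%, was not itself used to choose the genes, and it stands in here for the amount of mRNA. The polysome comparison that chose them calls a site more readily where polysome reads are many. Polysome against total coverage is therefore not independent of the choice. In bulk RNA, fewer cells with a transcript and less RNA per cell cannot be told apart. Each library lists different cytosines of a gene, so a position-adjusted coverage was also computed, in which each library is compared over the cytosines it shares with others. A listing needs 1 methylated read, which is more likely at a deeper cytosine. Both measures are thus taken over a set that depends on depth, and the adjustment does not remove this. For Igfbp4 the set held 47 to 56 cytosines in LF and MF and 106 to 282 in the other libraries. The median SD between replicates was 0.452 on the log2 scale for the median coverage and 0.204 for the position-adjusted coverage. Fold changes are on the log2 scale of the median coverage plus 1, after scaling of each library, over 7135 genes.

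Igfbp4 coverage was higher in polysome mRNA than in total mRNA at LF and MF. Its scaled coverage was 216 ± 13.3 (SD, n = 2) in LF and 232 ± 16.8 in MF, against 824 ± 27.0 in pLF, 489 ± 36.9 in pMF and 806 ± 179 in pHF. The LF and MF libraries lay below all polysome libraries. The log2 fold change of polysome against total was 1.50 ± 0.209 (SE), with a limma adjusted p of 0.00102, in a comparison in which 14.8% of genes were called higher. The position-adjusted value was 2.02 ± 0.135 (SE, limma adjusted p 6.54e-08), where 32.2% of 6673 genes were called higher.

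Csnk2a1 coverage was lower in polysome mRNA. Its scaled coverage was 550 ± 29.5 (SD, n = 2) in LF and 732 ± 317 in MF, against 241 ± 5.66 in pLF, 418 ± 204 in pMF and 637 ± 247 in pHF. pMF replicate 2 lay among the LF and MF libraries, and pHF lay among the total libraries. The log2 fold change at LF and MF was -1.01 ± 0.323 (SE), with a limma adjusted p of 0.0408, where 15.1% of genes were called lower. The call ended with the mean coverage in place of the median (log2 fold change -0.24, limma adjusted p 0.268), and with the replicate block, as given further below. It also ended without either LF replicate, MF replicate 1, either pLF replicate or pMF replicate 1, with a limma adjusted p between 0.0687 and 0.155. The position-adjusted value was -0.63 ± 0.131 (SE, limma adjusted p 0.000836), where 32.8% of genes were called lower.

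Rptor coverage did not pass the test between the fractions. Its scaled coverage was 348 ± 159 (SD, n = 2) in LF, 219 ± 81.7 in MF, 357 ± 288 in pLF, 485 ± 34.9 in pMF and 234 ± 140 in pHF. Both pMF libraries lay above the LF, MF and pHF libraries, while the 2 pLF libraries lay far apart, at 153 and 561. The log2 fold change of polysome against total was 0.52, with a 95% interval from -0.53 to 1.56 and a limma adjusted p of 0.432, and without 1 library it ranged from 0.052 to 0.98. The position-adjusted value was 0.24, with an interval from -0.23 to 0.72.

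The value of a whole gene hid a difference between the CDS and the 3′UTR, which was looked at after the values by site were seen. For Rptor, position-adjusted 3′UTR coverage was 182 to 254 in the 4 LF and MF libraries and 414 to 616 in the 4 pLF and pMF libraries, and the 2 sets did not overlap. This is a log2 fold change of 1.22 ± 0.162 (SE, limma adjusted p 2.06e-05), where 30.3% of 3014 genes were called higher. Its CDS coverage was 308 to 361 in total and 186 to 318 in polysome mRNA, a log2 fold change of -0.43 with a limma adjusted p of 0.0766.

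For Csnk2a1 only the CDS was called lower in polysome mRNA. CDS coverage was 524 to 672 in LF and MF and 182 to 298 in pLF and pMF, a log2 fold change of -1.26 ± 0.152 (SE, limma adjusted p 8.15e-06), where 33.7% of genes were called lower. The 3′UTR had 513 to 574 in total and 406 to 514 in polysome mRNA, a log2 fold change of -0.24 ± 0.132 (SE, limma adjusted p 0.126). This does not show that the 3′UTR was unchanged, and its methylated site had fewer reads in polysome mRNA, as given below. For Igfbp4 both parts rose, with log2 fold changes of 2.14 ± 0.155 (SE, limma adjusted p 9.89e-08) in the CDS, where 33.8% of genes were called higher, and 2.13 ± 0.181 (limma adjusted p 3.79e-07) in the 3′UTR.

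The ratio of CDS to 3′UTR coverage was taken before each region was scaled, so it is not the quotient of the values above. It was 1.69 to 1.96 for Rptor in LF and MF and 0.377 to 0.517 in pLF and pMF, and for Csnk2a1 it was 1.09 to 1.43 and 0.435 to 0.550. The median gene had 2.03 to 2.13 and 1.34 to 1.68 in the same libraries, so the whole polysome set shifted by -0.50 on the log2 scale. Relative to that shift, the log2 change of the ratio was -1.61 ± 0.180 (SE, limma adjusted p 2.49e-05) for Rptor and -0.97 ± 0.162 (SE, limma adjusted p 0.000399) for Csnk2a1, where 29.8% of genes were called lower. The Igfbp4 ratio changed by 0.05 (limma adjusted p 0.838). At the sites themselves, the coverage of the Rptor site was 208 to 321 reads in LF and MF and 538 to 668 in pLF and pMF, while that of the Csnk2a1 site was 167 to 338 and 42 to 154. The 2 sites with higher polysome levels thus differed in the direction of their coverage, and whether coverage and level are related was not tested.

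**Figure D3:**
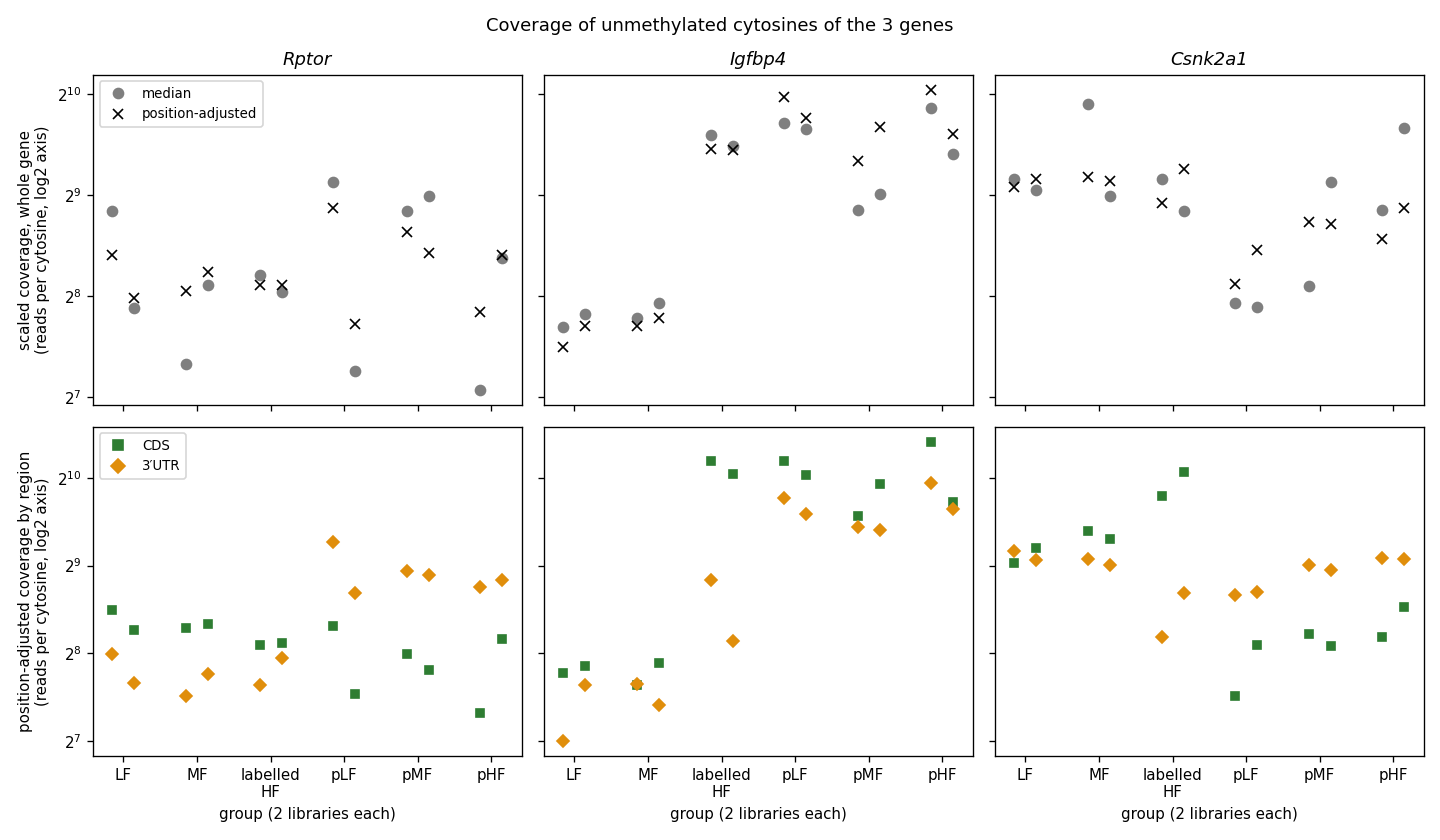
Coverage of unmethylated cytosines in reads per cytosine (y axes, log2) by group (x axis), with 1 point per library. The upper row gives the whole gene as scaled median (circles) and position-adjusted (crosses), and the lower row gives CDS (squares) and 3′UTR (diamonds). Igfbp4 rose in both regions in polysome libraries, while Csnk2a1 CDS coverage was 182 to 298 in pLF and pMF against 524 to 672 in LF and MF.

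Folate concentration was not linked to a call in the coverage of the 3 genes among the libraries other than those labelled HF. For LF against MF, 0.0% of 7135 genes were called by limma, with 136 genes at an unadjusted p under 0.05, and the log2 fold changes were 0.64 for Rptor (95% interval -0.83 to 2.11), -0.10 for Igfbp4 (-0.76 to 0.56) and -0.34 for Csnk2a1 (-1.36 to 0.68). For pLF against pMF, 0.168% of genes were called. The log2 fold changes there were 0.75 for Igfbp4 (0.09 to 1.41, limma adjusted p 0.512), -0.70 for Csnk2a1 (-1.72 to 0.32) and -0.72 for Rptor (-2.19 to 0.75), and without 1 library they ranged from -1.22 to -0.19 for Csnk2a1 and from -1.65 to 0.21 for Rptor. For pHF against pMF, 0.0701% of genes were called, and the values were 0.70 for Igfbp4 (0.04 to 1.36, limma adjusted p 0.611), 0.64 for Csnk2a1 (-0.38 to 1.66) and -1.19 for Rptor (-2.66 to 0.28). Without 1 library these ranged from 0.12 to 1.16 for Csnk2a1 and from -1.84 to -0.54 for Rptor, and the position-adjusted Rptor value was -0.40. The change of the polysome to total ratio between LF and MF was 0.85 for Igfbp4 (-0.08 to 1.79), -0.36 for Csnk2a1 and -1.36 for Rptor, with 0.014% of genes called. Without 1 library, the Rptor values ranged from 0.15 to 1.12 for LF against MF and from -2.29 to -0.43 for the ratio. With position-adjusted coverage, Rptor had 0.05 for LF against MF, -0.23 for pLF against pMF and -0.28 for the ratio. The 95% intervals of the median coverage are wide, and they do not show that the coverage was equal.

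Igfbp4 coverage in the libraries labelled HF was higher than in MF. Its scaled coverage there was 746 ± 36.8 (SD, n = 2), against 232 ± 16.8 in MF. The log2 fold change was 1.68 ± 0.295 (SE, limma adjusted p 0.0155), where 3.66% of genes were called higher, and the position-adjusted value was 1.71 ± 0.191, where 19.8% were called higher. The 4 values of the median coverage without 1 library lay between 1.61 and 1.76, and the call was kept only without HF replicate 2 (limma adjusted p 0.0496). Without MF replicate 1 the limma adjusted p was 0.123, without MF replicate 2 it was 0.0819 and without HF replicate 1 it was 0.0691. By region, the log2 fold change was 2.35 ± 0.219 in the CDS (limma adjusted p 1.04e-05) and 0.96 ± 0.257 in the 3′UTR (limma adjusted p 0.00806), where 22.8% of genes were called higher in the 3′UTR.

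The depth at the Igfbp4 site itself differed more than the coverage of the gene. It was 55 to 97 reads in LF and MF, between 0.220 and 0.292 of the gene's median coverage. In the libraries labelled HF it was 769 and 630 reads, 0.997 and 0.977 of the median, and in polysome mRNA 362 to 741 reads, between 0.698 and 1.02 of the median. The low levels in LF are therefore also the ones with the fewest reads.

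Csnk2a1 showed opposite changes by region in the libraries labelled HF. CDS coverage was 888 and 1073 against 672 and 630 in MF (log2 fold change 0.59 ± 0.214, SE, limma adjusted p 0.0428), where 21.1% of genes were called higher. The 3′UTR coverage was 290 and 412 against 538 and 513 in MF (log2 fold change -0.60 ± 0.187, SE, limma adjusted p 0.0179), where 23.3% of genes were called lower. The whole gene had a log2 fold change of -0.45 with a limma adjusted p of 0.623. Rptor passed the test in neither region, with log2 fold changes of -0.21 in the CDS and 0.15 in the 3′UTR.

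The summed levels of markers of other cells differed in the libraries labelled HF, and each sum is of median coverages after each library was scaled. The 4 fibroblast or mural markers, all of them listed, summed to 3395 and 3559 there, against 593 to 844 in LF and MF and 959.8 to 1583 in polysome mRNA. Most of the sum in labelled HF was Acta2, with a mean scaled coverage of 2695 against 374 in MF. Col3a1 had 286 against 82.7 and was called higher, while Pdgfrb had 394 against 179 and was not called. Astrocyte markers summed to 1989.6 and 2075 in labelled HF against 2106 to 2867 in LF and MF. Most of this was Aldoc, with a mean of 1828 in labelled HF, and S100b was never listed. Markers of the oligodendrocyte lineage, of which Sox10 was never listed, summed to 899 and 918 against 1371 to 1688, with Olig2 called lower (limma adjusted p 0.0367). Acta2, which encodes smooth muscle actin, was 7.24-fold higher than in MF (limma adjusted p 0.00475). Fabp7, a fatty acid binding protein of neural stem cells, was 2.35-fold lower (limma adjusted p 0.0361), and Slc1a3 was 2.33-fold lower (limma adjusted p 0.0451). These were the 2 of 6 NSC markers called lower, against 2.79% of all genes. The other NSC markers were not called and went both ways. Their mean scaled coverage was 396 against 145 in MF for Pax6, 2276 against 2184 for Nes, 28139 against 27280 for Vim and 593 against 963 for Sox9. Of 5 neuron markers, Rbfox3 and Syt1 were never listed, and the sums were 661 and 1092 in labelled HF against 574 to 851 in LF and MF. Tubb3 had a mean of 467 against 268 in MF and Map2 had 303 against 420, and neither was called. Of 3 microglial markers, Aif1 and Csf1r were never listed, and Cx3cr1 had 172 and 410.0 in the libraries labelled HF against 93.6 to 176. Of 3 endothelial markers, Cdh5 and Cldn5 were never listed, and Pecam1 reached 46.9 in the libraries labelled HF against 0 in LF and MF. The part of these differences in the Igfbp4 and Csnk2a1 values was not tested.

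Genes of the same pathways were read from 6 lists, of which 58 genes passed the coverage filter, with Rptor, Igfbp4 and Csnk2a1 among them. In polysome against total mRNA at LF and MF, 9 were called higher and 13 lower, which is 37.9% against 29.9% of all genes. Igfbp4 is among the 9 and Csnk2a1 among the 13. The members and lists were chosen with earlier results of these data known. The shares here and for each list below are therefore a description, given for the median coverage only. Of 5 subunits of mTORC1 and mTORC2 that could be tested, Akt1s1 was higher by a log2 fold change of 0.94 ± 0.189 (SE, limma adjusted p 0.00562). Akt1s1 encodes PRAS40, an inhibitor that binds raptor. The list's median log2 fold change was -0.35, against -0.05 over all genes, and Mtor, Mlst8, Mapkap1 and Rptor did not pass the test.

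The regulators of mTORC1 were mixed, with 3 of 17 called higher and 2 lower, near the shares of 14.8% and 15.1% of all genes. Lamtor2 (log2 fold change 1.62 ± 0.230, SE) and Lamtor1 (-1.02 ± 0.322) encode subunits of the same complex, Ragulator, which holds mTORC1 at the lysosome, and they moved in opposite directions. Rragb, a Rag GTPase, was higher by 1.46 ± 0.493, near the threshold (limma adjusted p 0.0495). Ddit4, a stress-induced inhibitor of mTORC1, was higher by 1.29 ± 0.141. Tsc1, a subunit of the complex that restrains Rheb, was lower, with a log2 fold change of -1.15 ± 0.288.

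Among the targets of mTORC1, 4 of 12 were called lower and 1 higher, against 15.1% and 14.8% of all genes, with a median log2 fold change of -0.59. Eif4ebp1 rose by 0.99 ± 0.194 (SE) while Eif4ebp2 had -1.23 ± 0.379, although both encode repressors of the cap-binding protein that mTORC1 inactivates. Rps6, the ribosomal protein phosphorylated downstream of mTORC1, had -1.52 ± 0.267. Lpin1, a phosphatidate phosphatase, had -1.16 ± 0.359. Larp1, which binds mRNAs of the translation machinery, had -0.77 ± 0.251, and its position-adjusted value was -0.14 with a limma adjusted p of 0.400.

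In the IGF system, 4 of 9 genes were called higher and 3 lower, against 14.8% and 15.1% of all genes, with a median log2 fold change of -0.09. The genes called higher were 3 binding proteins and 1 docking protein. Igfbp2 had a log2 fold change of 2.06 ± 0.137 (SE, limma adjusted p 3.22e-05), Igfbp4 had the 1.50 given above, and Igfbp3 had 0.63 ± 0.126. Irs1, which docks signalling proteins at the receptor, was higher by 1.30 ± 0.395, while Irs2 was lower with -2.08 ± 0.371. Insr, the insulin receptor, had -1.54 ± 0.412, and Igf2r, which clears IGF2, had -0.85 ± 0.283, while the receptor gene Igf1r was tested and not called.

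In PI3K and AKT signalling, 0 of 12 genes were called higher and 3 lower, against 14.8% and 15.1% of all genes, with a median log2 fold change of -0.71. Pik3r1, a regulatory subunit of PI3K, had -1.98 ± 0.297 (SE), and the kinase gene Gsk3b had -1.15 ± 0.275. Of the 3 CK2 genes only Csnk2a1 was called. In the libraries labelled HF against MF, 4 of the 58 genes were called, all higher, which is 6.90% against 6.45% of all genes. They were Igfbp4, Igfbp2 (1.12 ± 0.194), Ddit4 (1.04 ± 0.20) and Eif4ebp1 (1.45 ± 0.275). For LF against MF, pLF against pMF, pHF against pMF and the ratio, limma called 0 of the 58.

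**Figure D4:**
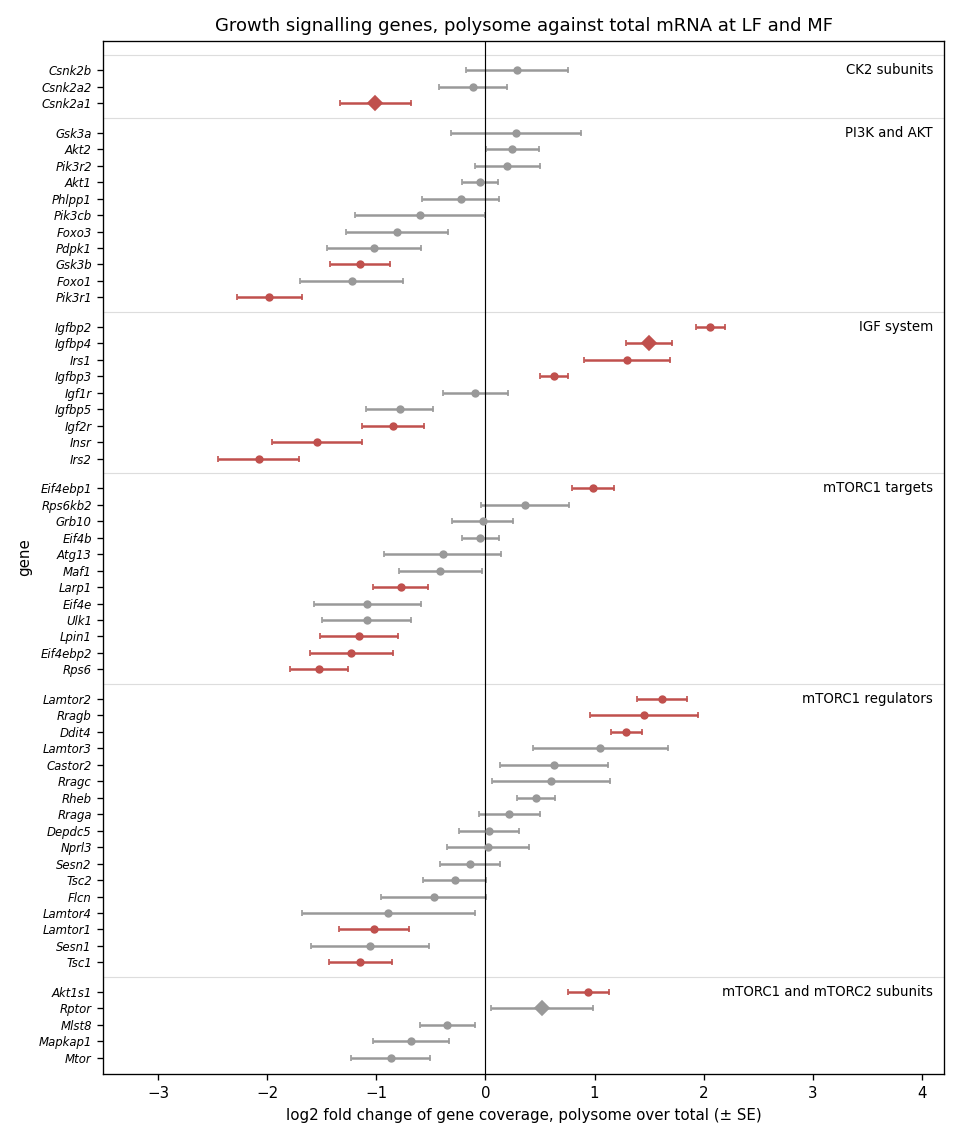
Log2 fold change of gene coverage in polysome against total mRNA at LF and MF with its SE (x axis) for the tested genes of the 6 lists, without 1 gene that is not shown (y axis), red where the limma adjusted p was under 0.05 and grey otherwise, with diamonds for Rptor, Igfbp4 and Csnk2a1. Igfbp2 and Igfbp4 lie at 2.06 and 1.50, and Irs2 and Pik3r1 lie at -2.08 and -1.98.

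The 3 genes did not share one coverage pattern over the 12 libraries. Pearson's r of median coverage was -0.45 between Igfbp4 and Csnk2a1, -0.17 between Rptor and Csnk2a1 and -0.05 between Rptor and Igfbp4. With position-adjusted coverage it was -0.72, -0.30 and 0.10. The genes most like Igfbp4 among 7134 were Dnajc17 (r = 0.953), Scarf2 (0.952) and Gm10819 (0.948). Those most like Csnk2a1 were Exoc6b (0.920), Pros1 (0.876) and Cdh2 (0.867), and those most like Rptor were Epg5 (0.847), Gpam (0.794) and Dirc2 (0.792). With position-adjusted coverage all 9 names were different, with Nkx6-2 (0.989) first for Igfbp4, Psmd1 (0.977) for Csnk2a1 and Slc27a1 (0.882) for Rptor.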

How the data were processed

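RNA BS-seq lists of 12 libraries were used, grouped by title in the labels. The authors used fastp for trimming, meRanGh for unique alignment to mm10, meRanCall for cytosines covered by 10 or more reads, and meRanAnnotate for gene names. The deposited counts are coverage, methylated reads and variant reads per cytosine, without normalization. The deposited level is a fraction, methylated reads over coverage less variant reads. The lists precede the authors' later filters for unconverted reads and structure, so unconverted stretches remain.

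Cytosines with state M and a coverage of at least 20 were used. The members and lists were chosen with earlier results of these data known. Sites were tested with Fisher's exact test (scipy 1.17.1). Gene coverage (at least 10 cytosines with a level under 5% in each library, pseudocount 1) was scaled by the median log ratio and tested with limma 3.58.1 in R 4.3.3, with Benjamini-Hochberg adjustment. Position-adjusted coverage and the split by region (at least 5 cytosines each, GENCODE vM21) were added after the data were seen. Named genes were the 3 members, pathway genes past the threshold (at most 4 per direction) and the 3 most alike. edgeR 4.0.16 on summed coverage was an alternative.

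On simulated data for LF against MF (7135 genes), limma recovered 0% of genes changed by 1 on the log2 scale and 48% of those changed by 2. For 221 positions with 20 changed, Fisher's exact test made 0.7 false calls on average with counting error and 13.65 with the overdispersion of the libraries. Calls of the 20 changed positions loosen the adjusted threshold, so these numbers cannot be set against the 7 positions called in the data. How many of those 7 are false was not tested. The study describes its replicates as biological, and the labels name no separate animals, so p-values measure the spread between these samples. The same replicate number gave correlations between -0.0437 and 0.0373 in median coverage and between -0.205 and 0.130 in position-adjusted coverage, so the numbers were not used as pairs. Sequences matched GRCm38.p6. Positions of the study's list were used without its values. The values of 1 pathway gene are not reported here, and the counts over the lists include it.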

Additional observations from a re-analysis of the deposited data

Results flagged for a closer look

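The Igfbp4 values of LF and MF lay in opposite order in the 2 fractions, although the comparison in total mRNA was not called (adjusted p 0.154 in Fisher's exact test). LF minus MF was -7.76 percentage points in total mRNA (1.82% and 4.17% against 13.3% and 8.25%), and pLF minus pMF was 5.35 points in polysome mRNA (17.1% and 15.1% against 11.3% and 10.1%). The difference between the 2 effects was not tested, since the polysome comparison was used to choose the genes. Coverage of the site was 55 to 97 reads in the total libraries and 362 to 716 in the polysome libraries.

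Besides the 3 sites, 3 cytosines of these genes reached 10% with 20 or more reads and 6 or more methylated ones in 1 library, HF replicate 1. Csnk2a1 position 152276999 of chromosome 2, in the CDS in exon 12, had 14.3% there (64 of 446 reads) and 9.22% in HF replicate 2. In the 5 other libraries that listed it, the level was 0.392% to 1.18%. Rptor position 119895976 of chromosome 11, in the CDS in exon 32, had 10.7% (8 of 75 reads) in HF replicate 1, 2.86% in HF replicate 2 and 1.02% in pHF replicate 1. Rptor position 119603526, in the 5′UTR in exon 1, had 19.4% (6 of 31 reads) and was listed in HF replicate 1 only. With 1 methylated read needed for a listing, the other libraries give no level for it.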

How the results depend on the processing

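Of 364 values under alternatives other than leaving out 1 library, 308 stayed as reported, and of 184 values without 1 library, 139 did. For a tested value this means the same direction and side of the threshold, for a count of calls a change within 1.5 times, and for a value without a test a change below 1 SD between replicates. The 308 include gene coverage values with a coverage minimum of 10 in place of 20, a setting that could not change them. A listed cytosine under the level limit of gene coverage has more than 20 reads, because it has 1 methylated read or more. Those values therefore say nothing about dependence on the processing. Where no cause is named for a change, the cause was not tested. The number of positions called for LF against MF was 0 of 221 with limma on log odds and 2 of 221 with the beta-binomial test. It was 14 of 1844 over all cytosines past the level filter, with 3 higher and 11 lower. The reported 7 of 221 were 6 higher and 1 lower, so the share was smaller and the direction was mostly the other one. For the libraries labelled HF against MF it was 0, 36 and 1073, and the Igfbp4 difference of 8.10 points lost its call in the first 2 tests (adjusted p 0.243 with limma and 0.0932 with the beta-binomial test). Including pHF and the libraries labelled HF gave 1.86 points for Igfbp4 between fractions.

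Of 7135 genes, or fewer where given, the number called for LF against MF was 1 with exonic cytosines. For the libraries labelled HF against MF it was 1864 with mean coverage, 710 with quantile normalization and 2631 of 6673 with position-adjusted coverage. It was 567 of 850 with cytosines listed in all 12 libraries and 555 of 850 with edgeR. These are counts near the reported 460 of 7135 but far larger shares. For pLF against pMF it was 4 with mean coverage, 0 of 850 with cytosines listed in all 12 libraries, 0 of 850 with edgeR and 4 without the libraries labelled HF and pHF replicate 2. For pHF against pMF it was 0 with mean coverage, with at least 30 cytosines, with position-adjusted coverage and without the libraries labelled HF and pHF replicate 2, 2 with quantile normalization, 8 of 850 with edgeR, 1 without the libraries labelled HF and 1 with exonic cytosines. For polysome against total it was 3727 with mean coverage, 621 of 850 genes with cytosines listed in all 12 libraries, 626 of 850 with edgeR, 4338 of 6673 with position-adjusted coverage and 2216 without the libraries labelled HF and pHF replicate 2. For the polysome to total ratio it was 0 with mean coverage, with cytosines listed in all 12 libraries, with edgeR, with position-adjusted coverage and with at least 30 cytosines, and without the libraries labelled HF and pHF replicate 2 it was 1, called lower where the reported one was higher. None of the 3 genes had enough cytosines listed in all 12 libraries, so that setting and edgeR gave them no value.

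Whether equal replicate numbers share a culture is not known, so a replicate block was run as an alternative. With the replicate block, 3 genes were called for pHF against pMF, and the Csnk2a1 value of -1.01 between fractions had a limma adjusted p of 0.0544. With position-adjusted coverage and the block, the counts were 2670 (labelled HF against MF), 2 (pLF against pMF), 0 (pHF against pMF), 4343 (polysome against total) and 0 (ratio).

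Among single values, Rptor for labelled HF against MF was -0.037 with position-adjusted coverage, with or without the block, and -0.21 in the CDS. Csnk2a1 there was 0.59 in the CDS and -0.60 in the 3′UTR. For LF against MF, Igfbp4 was 0.051 in the CDS and Csnk2a1 0.075 in the 3′UTR. For pLF against pMF, Rptor was 0.018 in the CDS and 0.063 in the 3′UTR. For pHF against pMF, Csnk2a1 was -0.0072 with position-adjusted coverage, with or without the block. Between fractions, Rptor was -0.43 in the CDS and 1.22 in the 3′UTR, and Csnk2a1 was -0.24 with mean coverage and -0.24 in the 3′UTR.

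Without 1 library at a time, positions called ranged from 1 to 11 (LF against MF), and genes called from 0 to 2 (LF against MF), 16 to 186 (labelled HF against MF), 0 to 66 (pLF against pMF), 2 to 8 (pHF against pMF), 1334 to 2183 (polysome against total) and 0 to 2 (ratio). For labelled HF against MF the site differences ranged from -1.99 to 0.37 points for Rptor, from 5.40 to 10.4 for Igfbp4 and from -1.43 to 7.48 for Csnk2a1, and for LF against MF from -1.52 to 2.61 for Csnk2a1. Log2 fold changes of coverage ranged from -0.80 to 0.11 (Csnk2a1, LF against MF), 1.61 to 1.76 (Igfbp4, labelled HF against MF), -0.90 to 0.011 (Csnk2a1, labelled HF against MF), -1.65 to 0.21 (Rptor, pLF against pMF), -1.26 to -0.75 (Csnk2a1, polysome against total) and -0.88 to 0.16 (Csnk2a1, ratio). Depth limits the Igfbp4 site in LF and the Csnk2a1 site in pMF.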

Other observations

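The 3 further cytosines called in HF replicate 1 share what precedes them and not what follows them, as their sequences on the plus strand show, with the cytosine and the 4 bases before it in capitals.
Csnk2a1, chr2:152276989-152277009: tggcagGGGGCagcacacctg
Rptor, chr11:119895966-119895986: tgtgaaGGGGCtgacagccct
Rptor, chr11:119603516-119603536: gctgcgGGGGCcggcgaccgg
All 3 directly follow GGGG, as do 12 of the 2852 listed cytosines of these genes (0.421%). Without the 3 cytosines, which were picked for their level in HF replicate 1, the others after GGGG with a coverage of 20 or more had a pooled level of 0.934% in HF replicate 1 (11 of 1178 reads) and 0.507% in HF replicate 2 (3 of 592 reads). In the other libraries with such cytosines it was 0.113% to 2.63%, the highest from 1 methylated read of 38. The letters were noticed after the values were seen and have no test.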
